A study of Mus musculus with 2 samples.

Results

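The interleukin-1 family ligands and receptors examined here are 10 genes: the ligands Il1a, Il1b and Il18, the antagonist Il1rn, and the receptor genes Il1r1, Il1r2, Il1rap, Il1rl1, Il18r1 and Il18rap. They were taken by name, as every non-control spot whose gene name in the array files equals one of these symbols, and the rule itself uses no measured value. This gave 20 probes in 38 spots, out of 27337 genes, 41174 probes and 43379 non-control spots in all. Each probe is a synthetic strand of 60 bases on a glass array, and its brightness rises with the amount of labelled RNA that binds it.

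The study profiled leukemia-initiating cells, which can regrow a leukaemia when transplanted, taken from acute myeloid leukaemias of mice that express the fusion gene MLL-AF9 together with YFP. Both genotypes carried MLL-AF9-YFP and were sorted from female bone marrow as Mac-1-positive and c-Kit-positive cells. One array held RNA of Jam3-null cells and the other RNA of WT cells, and the label of each names 3 mice. Jam3 encodes a junctional adhesion molecule. The labels give neither ages nor how much RNA each mouse contributed. The series thus asks what differs in leukemia-initiating cells without Jam3, but with 1 array per genotype differences could not be checked against replicates or given a p-value, and every value is only as precise as so few arrays allow.

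Interleukin-1 alpha and beta signal by binding the receptor IL-1R1, which then recruits the accessory protein IL-1RAP and, inside the cell, the adaptor MyD88. The pathway has brakes at the surface: the receptor antagonist, encoded by Il1rn, occupies IL-1R1 without activating it, and the decoy receptor IL-1R2 binds the ligand but lacks the signalling domain. Interleukin-18 works through a parallel pair, IL-18R1 and IL-18RAP, and interleukin-33 through ST2, encoded by Il1rl1, with IL-1RAP. Interleukin-1 is known as a growth stimulus for myeloid leukaemia cells, IL1RAP is known as a surface marker of human leukaemic stem cells, and IL-1R2 is abundant on neutrophils.

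For the Jam3-null array the scanner software flagged 55% of the non-control spots as well above background, meaning clear of the background noise, against 61.8% on the WT array. The processed signal is the brightness less background. With repeat spots averaged, the dimmest probe so flagged had one of 25.9 for Jam3-null and 15.4 for WT, which let dimmer genes pass for WT. The 2 probes of Jam3 itself were at background for both genotypes, so the signals do not check the genotype labels. All log2 differences are Jam3-null minus WT after each array was scaled to the 75th percentile of its non-control spots, and positive values stand for brighter Jam3-null signals. The SD given with a difference comes from the scanner software's error model and covers the measurement on these arrays only. Of the genes of the sort markers, Kit had a difference of 0.09, while Itgam, which encodes the Mac-1 chain, was at 3.71, with signals of 3703 for Jam3-null against 302 for WT.

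Probes of 4 genes that differed between the arrays are shown here, because each value below is the signal of one such stretch. The sequences are those of the array files, 5′ to 3′, in lower case throughout, with mm9 coordinates.
Il1r2, probe within 1 block at chr1:40180014-40180073, plus strand: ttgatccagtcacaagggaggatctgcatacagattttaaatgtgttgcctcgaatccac
Il1r2, probe spread over chr1:40168971-40171918, plus strand: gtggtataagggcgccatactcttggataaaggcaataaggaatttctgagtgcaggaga
Il18rap, probe within 1 block at chr1:40605729-40605788, plus strand: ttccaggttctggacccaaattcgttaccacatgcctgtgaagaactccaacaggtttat
Il1rn, probe spread over chr2:24203035-24204055, plus strand: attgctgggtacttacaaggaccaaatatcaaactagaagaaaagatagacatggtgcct
Il18, probe spread over chr9:50387470-50389598, plus strand: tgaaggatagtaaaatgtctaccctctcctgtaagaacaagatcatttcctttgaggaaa

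The span on the genome exceeded the probe's own 60 bases for 5 of the 20 probes, among them the last 2 above and the second Il1r2 probe. Such a probe reads exons joined across an intron. The remaining probes lie in 1 uninterrupted stretch each, and the GC content of the 20 probes ran from 26.7% to 45.0%.

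On the Jam3-null array the signals of the decoy receptor, the antagonist, interleukin-1 beta and the interleukin-18 axis were higher, and that of the signalling receptor Il1r1 was lower. Of the 10 genes, 6 were well above background on both arrays, and 4 of these were higher by 2-fold or more, 1 was lower by 2-fold or more and 1 differed by less. Of all 14361 genes flagged on the 2 arrays alike, 10.3% passed 2-fold in the higher direction and 8.59% in the lower. The median log2 difference of the 6 was 1.47, beside -0.07 over all genes seen on both arrays. After normexp background correction, which adds an offset of 50 to every signal, the 4 higher genes became 2 and the median 0.67. Of all 14361 genes, those at least 2-fold higher fell from 1473 to 1047 with that correction. Those at least 2-fold lower fell from 1234 to 938. Another 2 of the 10 genes, Il1b and Il1rn, passed the background flag for Jam3-null only, which held for 1.79% of all genes, and 2, Il1a and Il1rl1, for WT only, which held for 8.99%. As a bound, Il1b and Il1rn were at least 2-fold higher, as were 1.73% of all genes, and 0 of the 10 had a bound of at least 2-fold lower, against 1.42% of all genes. These shares describe a pair of arrays, and the cells being a bulk sort, fewer cells of a type and less RNA per cell cannot be told apart.

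**Figure D1:**
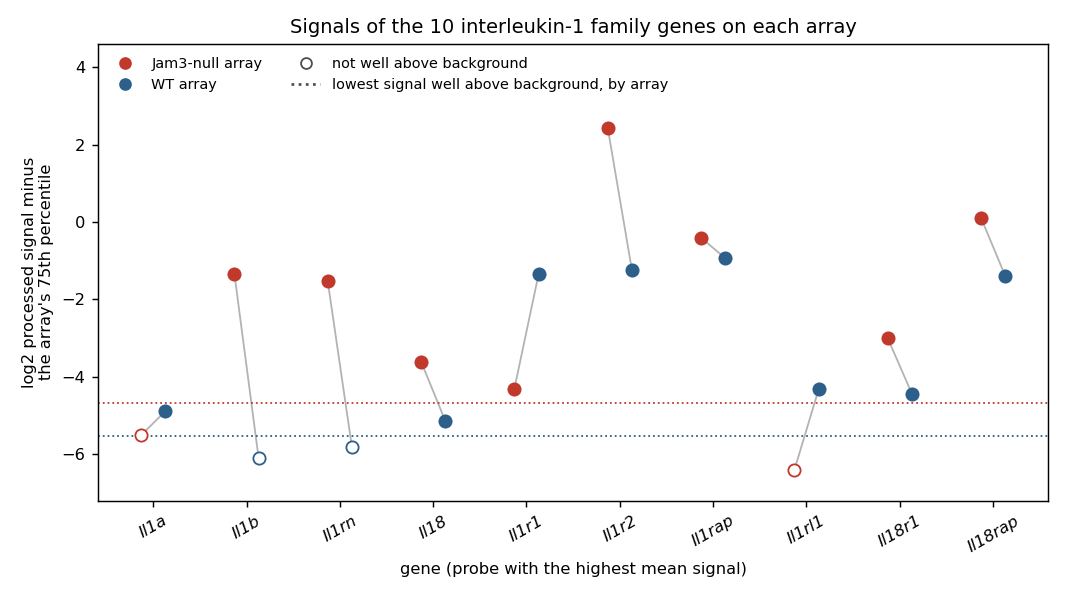
Scaled log2 processed signal (vertical axis) of the probe with the highest mean signal for each of the 10 genes (horizontal axis), Jam3-null in red and WT in blue; open circles are not well above background, and dotted lines mark the lowest signal well above background on each array. Il1r2 stands highest on the Jam3-null array at 2.44, against -1.25 on the WT array, and Il1r1 shows the opposite order, -4.31 against -1.35.

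Among the ligands, Il1b, which encodes interleukin-1 beta, the secreted form that inflammatory cells make as a precursor, stood out. Its probe, at chr2:129190347-129190406 on the minus strand, is printed in 10 spots on each array, of which 9 were used on each after an outlier was left out. The 9 Jam3-null spots had processed signals from 253 to 280 with a median of 263, and the 9 WT spots from 3.81 to 31.5 with a median of 8.57. All 9 Jam3-null spots were well above background and 2 of the 9 WT spots were. The lowest Jam3-null spot was thus brighter than the brightest WT spot that was used, and the outliers left out, at 366 for Jam3-null against 65.3 for WT, kept that order.

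Since most WT spots of Il1b were at background, its fold is a bound. Set against the lowest WT signal well above background, the Jam3-null signal was 18.3-fold higher, a log2 bound of 4.19. The 2 WT spots of the probe that were well above background, at 31.5 and 24.5, were brighter than that. The spot at 24.5 differed by 3.52 from its Jam3-null counterpart. A bound, here and below, is thus set against the dimmest flagged signal of an array and is not a strict minimum. Normexp correction lowered the bound to 4.4-fold. The spread of the spots differed between the arrays, with an SD of 0.06 in log2 for Jam3-null against 0.97 for WT, where the signals lay near 0. Repeat spots share one RNA extract and one labelling, so they measure the precision of the array and not the spread between mice.

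Il1a, which encodes interleukin-1 alpha, was close to the background on both arrays. Its brighter probe had signals of 14.7 for Jam3-null against 24 for WT, and only the WT signal was well above background. As the WT signal lay below the lowest Jam3-null signal well above background, no fold is given. The second probe, which crosses a splice junction, had 6.99 and 4.35 on the Jam3-null and WT arrays and was not well above background on either.

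Il18, which encodes interleukin-18, was also read by 10 repeat spots. All 10 Jam3-null spots were used, with signals from 40.9 to 71.1 and a median of 53.7, and all were well above background. On the WT array 8 were used, with signals from 15.4 to 24 and a median of 19.7, and 7 of these were well above background. The spots that were used did not overlap between the arrays.

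The log2 difference of Il18 was 1.53, with an error-model SD of 0.36 and an SD of 0.33 from the repeat spots, which is 2.90-fold higher. Its size depended on the background correction, since normexp correction gave 0.61, under 2-fold. The 2 outlier spots left out on the WT array had signals of 59.7 and 34.3, brighter than the 8 used and, for the first, within the Jam3-null range.

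**Figure D2:**
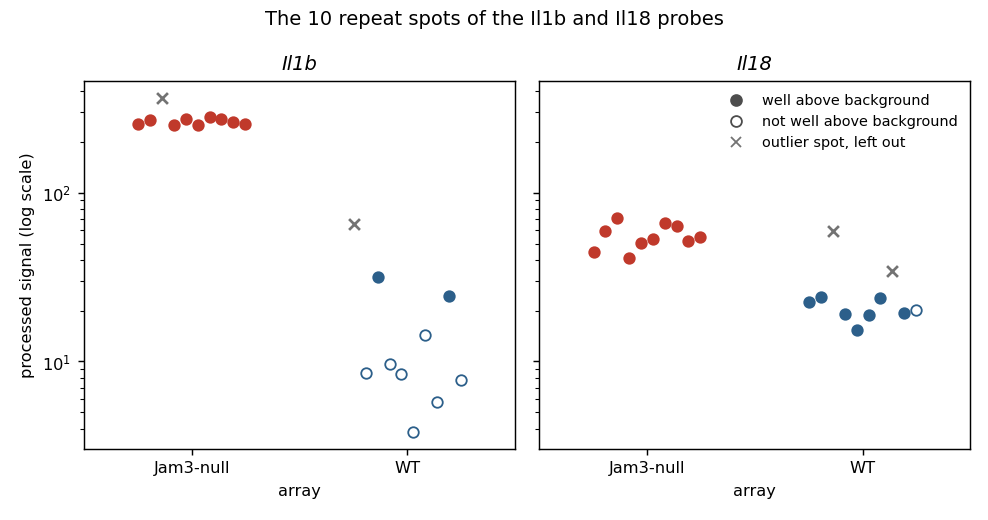
Processed signal on a log scale (vertical axis) of each of the 10 repeat spots of the Il1b and Il18 probes on the Jam3-null (red, left) and WT (blue, right) arrays; filled spots are well above background, open spots are not, and crosses are outlier spots left out. For Il1b the used Jam3-null spots lie between 253 and 280 and the used WT spots at or below 31.5, and for Il18 the used spots of the arrays are separated at 40.9 and 24.

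The antagonist gene Il1rn was higher with both of its probes. The brighter probe, at chr2:24206125-24206184, had signals of 231 for Jam3-null against 12.6 for WT, at least 16.0-fold higher. The junction-crossing probe shown above had 84.2 and 8.68 on the Jam3-null and WT arrays, at least 5.84-fold higher. Neither was well above background on the WT array, so both values are bounds. After normexp correction they were 3.75-fold and 2.13-fold.

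The receptors for interleukin-1 went opposite ways. Il1r2, the decoy receptor gene, had a signal of 3620 for Jam3-null against 301 for WT with the first probe shown above, a log2 difference of 3.69 (error-model SD 0.20) or 12.9-fold higher. The second probe, across a splice junction, had 1453 and 128 on the Jam3-null and WT arrays and a difference of 3.60 (SD 0.21; 3.0 after normexp correction). The probes thus differed by less than the error-model SD of either. Il1r2 held place 127 from the top among the 14361 genes seen on both arrays. Over the alternatives its difference ran from 3.39 to 3.77.

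Il1r1, the signalling receptor gene, had a signal of 33.6 for Jam3-null against 281 for WT with its only probe, at chr1:40372667-40372726. The log2 difference was -2.96 (error-model SD 0.31), or 7.81-fold lower, place 91 from the bottom of the same 14361 genes. The Jam3-null signal was only a little above the lowest one well above background there, and normexp correction reduced the difference to -1.80, or 3.47-fold lower. The direction was the same under every alternative that kept the gene.

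Il1rap, the shared accessory receptor gene, differed little. Of its 5 probes, 2 were well above background on both arrays. The probe annotated to transcript variant 1, at chr16:26717189-26717248, had signals of 504 for Jam3-null against 373 for WT, a log2 difference of 0.53 (error-model SD 0.21). The probe annotated to transcript variant 2, at chr16:26701498-26701557, had 233 and 174 on the Jam3-null and WT arrays and a difference of 0.52 (SD 0.21). In mouse, the variants encode membrane-bound and shorter soluble forms of the protein, and their probes did not differ beyond the error model. The other 3 probes, 1 of them for variant 1 as well, had signals from 5.22 to 11.9 for Jam3-null and from 3.1 to 7.21 for WT, none well above background.

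Il1rl1 encodes ST2, the interleukin-33 receptor, known from mast cells and innate lymphoid cells. The probe annotated to transcript variant 1, at chr1:40521952-40522011, had a signal of 7.82 for Jam3-null against 35.5 for WT, where alone it was well above background. The bound was small, at least 1.28-fold lower, and 1.04-fold after normexp correction. Both probes annotated to variant 2 were at background on both arrays, with signals of 5.23 and 5.33 on the Jam3-null array and 3.24 and 3.21 on the WT array. A gene this close to background carries no more than that bound.

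The interleukin-18 receptor chains were higher together. Il18rap, the accessory chain gene, had a signal of 721 for Jam3-null against 272 for WT with the probe shown above. Its log2 difference was 1.5 (error-model SD 0.21), or 2.84-fold higher, and it ran from 1.30 to 1.56 over the alternatives. Another Il18rap probe, annotated to a separate Ensembl transcript, was at background on both arrays with 12.0 for Jam3-null against 3.38 for WT.

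Il18r1, the ligand-binding chain gene, had a signal of 83.4 for Jam3-null against 32.9 for WT with its only probe, at chr1:40557541-40557600. Its log2 difference was 1.44 (error-model SD 0.29), or 2.71-fold higher. Normexp correction reduced it to 0.74, under 2-fold. The log2 values of Il18, Il18r1 and Il18rap, the ligand and both receptor chains, thus lay apart by less than any of their error-model SDs before that correction.

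**Figure D3:**
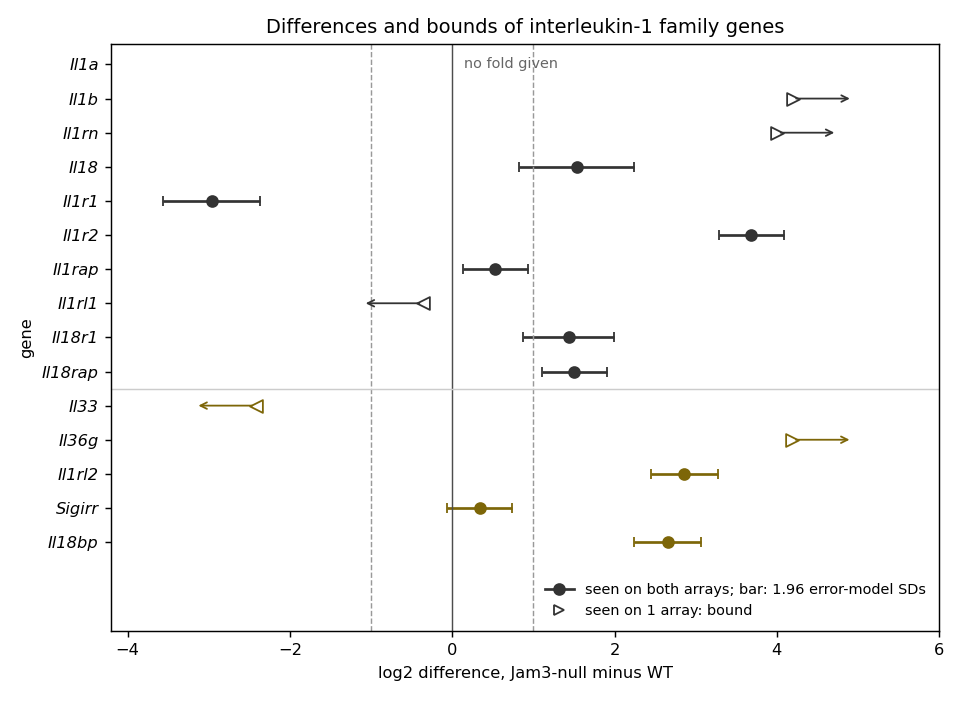
Log2 difference, Jam3-null minus WT (horizontal axis), of the 10 genes (dark, above the line) and of 5 related genes (brown, below it); bars are error-model intervals as the legend gives them, open triangles with arrows are bounds for genes seen on 1 array, and dashed lines mark 2-fold. Il1r2 at 3.69 and Il1r1 at -2.96 lie farthest apart among the genes seen on both arrays.

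Of 11 further family genes on the array, 3 were seen on both arrays, with 2 past 2-fold higher and none (0) past 2-fold lower. Il1rl2, the interleukin-36 receptor gene, had a signal of 695 for Jam3-null against 103 for WT, a log2 difference of 2.86 (error-model SD 0.21; 2.26 after normexp correction), with a second probe at background on both. Il18bp, which encodes a soluble binding protein that neutralises interleukin-18, had 510 and 86.6 on the Jam3-null and WT arrays, a difference of 2.65 (SD 0.21; 2.06 after normexp correction), and its second probe gave 2.37. Sigirr, an inhibitory receptor gene of the family, differed by 0.34 (SD 0.20).

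Among the family genes seen on 1 array, the interleukin-36 gamma gene Il36g (Il1f9) had a signal of 263 for Jam3-null against 9.93 for WT, at least 18.2-fold higher (4.54-fold after normexp correction). Its second probe was at least 5.43-fold higher (2.31-fold). Il33, the ligand of ST2, went the other way, with 12.9 for Jam3-null against 148 for WT, at least 5.36-fold lower (2.18-fold after normexp correction). Il36a and Il36b, also named after their values were seen, were well above background on the WT array only and had no bound in that direction. The remaining 4 (Il36rn, Il1f10, Il1rapl1 and Il1rapl2), named after their values were seen, were at background on both.

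Most of these genes lie in clusters, and neighbours within a cluster could differ in sign. On chromosome 1 the receptor genes follow each other in the order Il1r2, Il1r1, Il1rl2, Il1rl1, Il18r1 and Il18rap, by the RefSeq gene table of GRCm38.p6. Their log2 values in that order were 3.69, -2.96, 2.86, a bound of -0.36, 1.44 and 1.5, so the adjoining genes Il1r2 and Il1r1 had opposite signs. Of the flanking genes, Map4k4, a kinase gene, differed by -0.34 and Rfx8, Slc9a4 and Slc9a2 were at background on both arrays.

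On chromosome 2, Il36g had a bound of 4.19 in log2 and Il1rn, in the same cluster, one of 4.0. Il36a, Il36rn and Il1f10, which lie between them, had none. In a separate cluster with Il1a, Il1b also had a bound of 4.19. Beside Il1a and Il1b, the phosphate transporter gene Slc20a1 differed by 0.03, the spindle gene Ckap2l by 0.44 and Sirpa, a myeloid inhibitory receptor gene, by 0.69. Pdyn had no bound. Next to the interleukin-36 genes, Tbpl2 was at background on both arrays. Beyond Tbpl2 stands Hnmt, the histamine-degrading methyltransferase gene. Its signals were 2466 for Jam3-null against 28.4 for WT, a difference of 6.54 (4.65 after normexp correction). On the other side of Il1rn, Psd4 differed by 0.86 and Pax8 was at a bound of 1.90, or 0.68 after normexp correction.

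**Figure D4:**
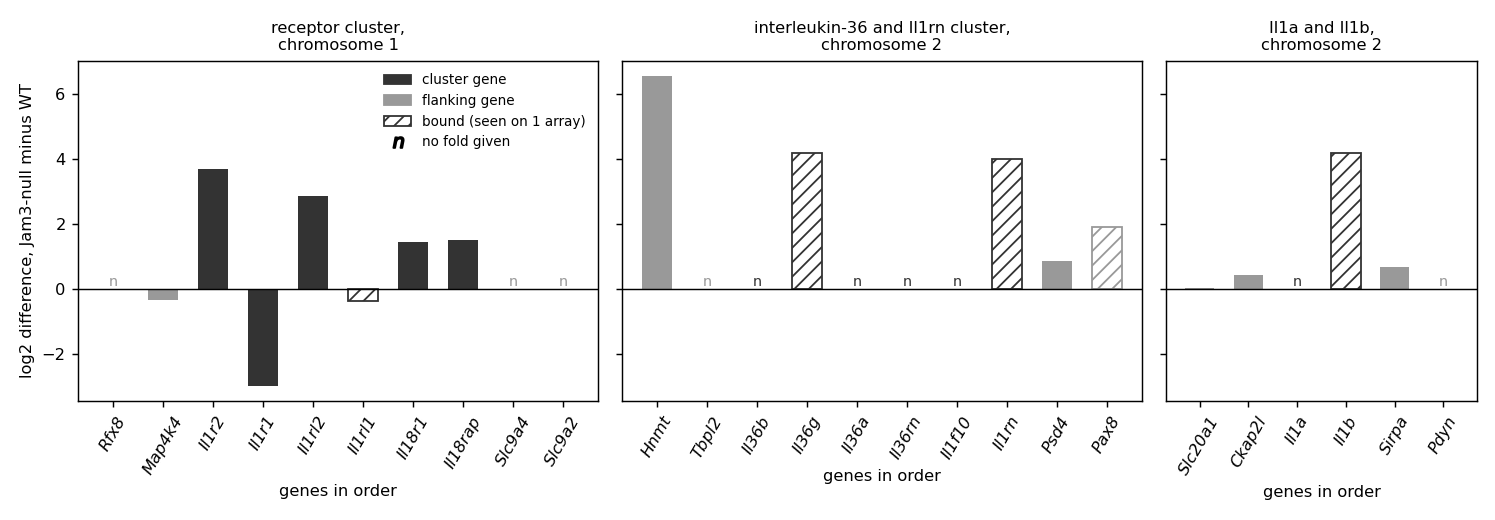
Log2 difference, Jam3-null minus WT (vertical axis), of the genes of each cluster and their nearest named protein-coding neighbours, in chromosomal order (horizontal axis); dark bars are cluster genes, grey bars flanking genes, hatched bars bounds, and n marks genes with no fold. In the receptor cluster Il1r2 (3.69) and its neighbour Il1r1 (-2.96) point in opposite directions.

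The 250 bases before the RefSeq starts of the 10 genes (16 starts) were searched on both strands for 5 short motifs, as a description of sequence. The letters TATAAA, those of a TATA box, were found in 3 of the 16 windows (18.8%), against 12.4% of 32851 promoters of the same length. The matches of Il1a and Il1b had their first base at -32 and -31 from the start, and that of Il18 lay on the opposite strand at -175. The NF-kB motif, GGGA and CC with any 4 bases between them, was found in 2 windows (12.5%; Il1rn and Il1rap), against 17.6%, and the AP-1 motif TGANTCA in 2 (12.5%; Il1a and Il1rn), against 6.75%. The C/EBP motif TTGCNNAA was found in 2 (12.5%; Il1r1 and Il1rl1), against 9.56%, and the PU.1 motif GAGGAAG in 3 (18.8%; Il1a, Il18r1 and Il18rap), against 10.6%. Windows of one gene can overlap. Shown with matches in capitals are the window of the higher ligand Il1b and 1 window of the antagonist Il1rn. That Il1rn window was picked for its NF-kB match, and the other Il1rn windows had no match to any of the 5 motifs. The capitals are TATAAA in the first and, in order, TGANTCA and the NF-kB motif in the second, and no 2 matches overlap.
Il1b, GRCm38.p6 chr2:129371140-129371389, minus strand: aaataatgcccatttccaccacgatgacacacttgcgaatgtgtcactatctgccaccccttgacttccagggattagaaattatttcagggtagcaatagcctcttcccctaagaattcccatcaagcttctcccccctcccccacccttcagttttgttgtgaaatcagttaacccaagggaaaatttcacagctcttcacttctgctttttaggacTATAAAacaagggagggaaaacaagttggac
Il1rn, GRCm38.p6 chr2:24336610-24336859, plus strand: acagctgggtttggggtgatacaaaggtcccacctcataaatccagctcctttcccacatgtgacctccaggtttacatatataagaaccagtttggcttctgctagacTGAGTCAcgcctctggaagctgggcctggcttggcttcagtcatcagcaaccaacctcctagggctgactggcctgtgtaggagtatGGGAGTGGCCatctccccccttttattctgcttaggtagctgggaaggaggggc

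Genes that process, transmit or follow interleukin-1 signals were read beside the family. The inflammasome and processing genes, whose products cut the precursors of interleukin-1 beta and interleukin-18 or start that cutting, had a median log2 difference of 0.39, with 4 of 15 genes seen on both arrays past 2-fold higher and 1 past 2-fold lower. P2rx7, the ATP receptor gene upstream of the NLRP3 inflammasome, was at 2.24, though its second probe gave 0.47. Mefv, which encodes pyrin, was at 1.51, and the channel gene Panx1 at -1.54. Nlrp12, seen on the Jam3-null array only, was at least 8.98-fold higher, 2.75-fold after normexp correction, and Nlrp1a, seen on the WT array only, had a bound of 1.19-fold lower. Chosen after their values were seen, the caspase gene Casp4 was at 1.36, the pore gene Gsdmd at 1.25, Nlrp3 at 0.39 and Casp1, which encodes the cutting enzyme caspase-1, at -0.34.

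The MyD88 signalling genes had a median of -0.05, which ran from -0.14 to 0.08 over the alternatives, with 5 of 20 past 2-fold higher and 0 past 2-fold lower. Peli2, a ubiquitin ligase gene of the receptor complex, was at 3.79 (2.94 after normexp correction) with 1 of its 3 probes seen on both arrays. Irak2, a kinase gene of that complex, was at 1.77, and Irak3, which encodes an inhibitory member, at 1.51 with all 3 probes higher. The other 2, named after their values were seen, were the adaptor gene Myd88 at 1.32 and the kinase gene Irak4 at 1.30. The others lay between -0.44 and 0.68.

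The interleukin-1 induced target genes, which other inflammatory signals also induce, had a median of 1.10, with 9 of 17 past 2-fold higher and 0 past 2-fold lower. The chemokine gene Ccl2 was at 4.79 (3.28 after normexp correction), Lcn2, the siderophore-binding protein gene, at 4.30, and the acute phase gene Saa3 at 3.56 (2.79). Cxcl1 was seen for Jam3-null only, at least 2.27-fold higher (1.42-fold after normexp correction). Il6, Csf2 and Csf3, named after their values were seen, were at background on both arrays. Lcn2 is also a neutrophil granule gene and stands in the neutrophil list below. A list of Toll-like receptors and associated genes, most of which signal through MyD88, had a median of 1.11, with 5 of 9 past 2-fold higher and 2 past 2-fold lower. Split after the values were seen, 4 of its 6 Toll-like receptors were past 2-fold higher and 0 past 2-fold lower, and both lower genes were associated ones, Ly96 at -1.09 and Cd180 at -2.30. Tlr4 was at 3.83 (2.19 after normexp correction), Tlr7 at 3.13 (2.16) and Cd14 at 3.01, and Tlr8 was seen for Jam3-null only, at least 2.83-fold higher (1.67-fold).

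**Figure D5:**
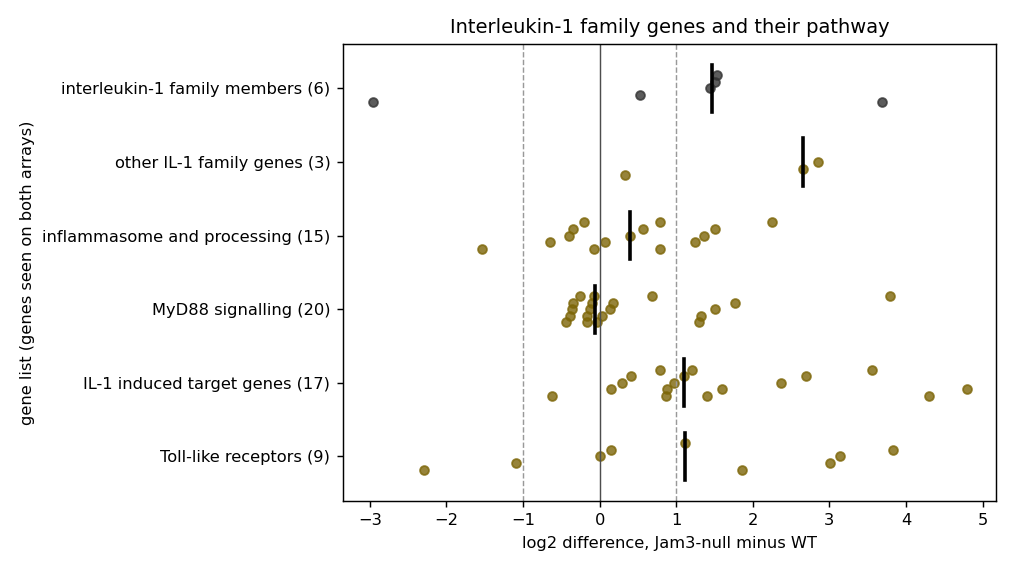
Log2 difference, Jam3-null minus WT (horizontal axis), of each gene seen on both arrays (points) in the interleukin-1 family and in 5 related lists (rows, number of genes in brackets); thick lines are medians and dashed lines mark 2-fold. The medians are 1.47 for the 6 family genes, 2.65, 0.39, -0.05, 1.10 and 1.11 for the lists from top to bottom, with the MyD88 signalling genes crowded around 0.

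Markers of cells that the sort could hold differed between the arrays, and their part in the differences of the 10 genes was not tested. Markers said to be at background, and any beyond the 3 largest differences of a list, were named after their values were seen. Beside the higher Il1r2, Il1b and Il1rn signals, all 11 neutrophil markers on the array were at least 2-fold higher, with a median of 4.30 and a summed signal of 399091 for Jam3-null against 18210 for WT. Fcnb was at 6.63, Itgb2l at 5.64 and Camp at 4.92. Of 9 monocyte and macrophage markers seen on both arrays, 4 were past 2-fold higher and 0 past 2-fold lower, with Cd14 at 3.01, Adgre1 at 2.03 and Csf1r at 1.88, and a summed signal of 181255 for Jam3-null against 240513 for WT. Most of that sum was Ly6c2, at -0.39, and without it the sum turned, 11845 for Jam3-null against 3218 for WT; Cx3cr1 was at -0.06. The mannose receptor gene Mrc1 of that list was at background on both.

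Beside the dim Il1rl1 signal, markers of mast cells, basophils and eosinophils went mostly the lower way, with 6 of 7 past 2-fold lower and 1 past 2-fold higher. Cpa3 was at -3.60, Gata2 at -3.21 and Prg2 at -2.59, the summed signal was 7319 for Jam3-null against 35115 for WT, and Ms4a2 and Tpsab1 were at background on both. Beside the lower Il1r1 signal, all 3 endothelial and stromal markers seen on both arrays were at least 2-fold lower, namely Pdgfrb at -2.50, Pecam1 at -1.69 and Cxcl12 at -1.08 (-0.53 after normexp correction). Their defining members Cdh5, Kdr, Emcn and Col1a1 were at background on both arrays, and the summed signal was 623 for Jam3-null against 2738 for WT.

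Beside the higher Il18r1 and Il18rap signals, the T, NK and innate lymphoid markers went both ways, with Nkg7 at 1.84, Gzmb at -1.81 (-1.08 after normexp correction) and Tbx21 at 0.58. The NK marker Klrb1c was seen for Jam3-null only, 3.68-fold higher (1.67-fold after normexp correction). Its WT signal of 15.6, though not well above background, exceeded the dimmest flagged one. That fold is therefore the measured ratio, with an error-model SD of 0.40 in log2, and not a minimum. Of 13 such markers, 6 (Cd8a, Ncr1, Gzma, Eomes, Rora and Gata3) were at background on both arrays, and the summed signal was 15518 for Jam3-null against 5002 for WT. Without Nkg7, which gave most of it, the sum turned, 358 for Jam3-null against 476 for WT. Of dendritic cell markers 4 of 5 were at least 2-fold lower, with Flt3 at -3.51, Tcf4 at -2.72 and H2-Ab1 at -1.46, and a summed signal of 3223 for Jam3-null against 20553 for WT. Itgax was at -1.19 (-0.65 after normexp correction), and Siglech and Cd209a of that list were at background on both arrays. Of the B cell markers, 0 of the 2 seen on both arrays reached 2-fold, with Cd79b at -0.44, and the summed signal was 7838 for Jam3-null against 11359 for WT. Nearly all of that sum was Cd79b, and without it the sum was 77.0 for Jam3-null against 136 for WT. Cd79a and Pax5 were at background on both arrays.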

How the data were processed

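RNA of sorted cells was labelled with Cy3 and hybridised to 1-colour Agilent arrays, both on 1 slide with 1 scan. Per the file headers, intensity values were made with Feature Extraction 10.7.3.1 (10.7 per the submitters' processing notes), which subtracts background, detrends within an array and replaces the dimmest spots by surrogates; probe coordinates are mm9. The authors also deposited a table of log2 values, with column medians of 5.66 each and a normalization that no source used here states. It correlated across probes with the log2 processed signals at 0.999 on each array and was used only as an alternative.

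Control spots were left out, as were outlier spots (151 on the Jam3-null and 163 on the WT array), no spot was saturated, and log2 processed signals were set relative to each array's 75th percentile (668 on the Jam3-null and 714 on the WT array). Repeat spots were averaged, a probe counted as well above background when more than 50% of its used spots were, and a gene took its probe with the highest mean signal. A probe well above background on 1 array has only a bound: its signal there was set against the other array's dimmest flagged signal or, if brighter, the probe's own signal on it. In the latter case the bound is the measured ratio. The dimmest flagged signal is not a detection limit, since some unflagged signals were brighter. Examples are a Jam3 probe at 28.1 on the Jam3-null array and Klrb1c at 15.6 on the WT array. Values given as at least a fold are therefore not strict minima. With 1 array per genotype no test was run. Genes were named by accession (27668 probes), current symbol (5589) or unique older symbol (471) in RefSeq's GRCm38.p6 table, otherwise as in the files (7446). Promoter sequences are RefSeq's.

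The family genes and all lists were chosen with earlier results of these data known. Named were all 10 genes, per pathway list the 3 largest differences and the 2 largest bounds, the 2 flanking genes per side of a cluster, and per marker list at most 3 differences, besides genes said to be named after their values were seen. Alternatives covered background correction, scaling, filters, probe summary and fold threshold. Python 3.11.15, numpy 2.4.6, pandas 2.3.3, R 4.3.3 and limma 3.58.1 were used, and the fold counting was tested on simulated data.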

Additional observations from a re-analysis of the deposited data

How the results depend on the processing

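With 1 array per genotype, only processing choices could be varied. No paired analysis was possible because each genotype has 1 array and no test was run. The 4 family genes at least 2-fold higher became 2 with normexp correction, 1 with a stricter filter on dim genes and 1 at a 3-fold threshold. Without a filter they became 6. The 1 lower gene became 2 without a filter and 0 with the stricter one. The family median of 1.47 became 0.67 with normexp correction, 3.69 with the stricter filter (1 gene left) and 0.74 with normexp correction and genes at their bound, an alternative chosen after seeing the data. Over all genes, 1473 at least 2-fold higher and 1234 lower became 1047 and 938 with normexp correction. They became 2828 and 2920 without a filter, 521 and 567 with the stricter one, 2647 and 2917 at 1.5-fold, and 709 and 421 at 3-fold. Il1r2, Il18, Il18r1, Il18rap and Il1rap stayed positive and Il1r1 negative in every alternative that gave them a value, at least 11 each. The median of all genes was -0.07, and between -0.16 with spike-in scaling and 0.06 with cyclic loess. Dim signals near background limit Il1a, Il1rl1, Il18 and Il18r1, and also Il1r1 on the Jam3-null array. The offset in normexp correction moves dim signals towards each other.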
